A study of Homo sapiens with 6 samples.

Results

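The nuclear RNA exosome and the proteins that bring polyadenylated RNA to it are represented here by 10 genes, chosen by name and by function. They are EXOSC2, EXOSC3, EXOSC7, EXOSC9, DIS3 and EXOSC10 of the exosome itself, and ZCCHC8, ZFC3H1, ZC3H14 and PABPN1 of its nuclear RNA-binding partners. All 10 were found among the 47577 loci of the expression table, 26793 of which carry a gene symbol. The samples are OVCAR3 cells, an established line from a human high-grade serous ovarian adenocarcinoma, kept for 6 h with either the solvent DMSO (3 libraries, the controls) or 200 nM THZ531 (3 libraries). THZ531 is a covalent inhibitor of CDK12 and CDK13, the kinases that phosphorylate the tail of RNA polymerase II while it elongates. The series title, sample titles and sample descriptions name THZ531, whereas a protocol line shared by all samples names THZ1, and the titles were followed. One cell line, one dose and one time were sampled, with no genotype difference between the groups. The comparison asks how the messages of this RNA decay machinery stood after short inhibition of the 2 kinases.

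The exosome is a barrel of subunits that trims and degrades RNA from its 3′ end. A ring of inactive RNase-like subunits, EXOSC7 and EXOSC9 among them, is closed by a cap of RNA-binding subunits that includes EXOSC2 and EXOSC3. The cutting is done by DIS3, at the bottom of the barrel, and in the nucleus by EXOSC10 at the top. RNA is handed to it by the helicase MTREX together with adaptors. In the NEXT complex ZCCHC8 and RBM7 serve short, unadenylated transcripts. In the PAXT connection ZFC3H1 joins MTREX to PABPN1, the nuclear poly(A)-binding protein. ZC3H14 is a zinc finger protein that also binds poly(A) tails. Substrates of these routes include transcripts that end early inside genes, promoter upstream transcripts and polyadenylated host transcripts of small nucleolar RNAs.

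The start regions of 3 of the genes are shown because EXOSC2 and EXOSC3 fell together and because ZFC3H1 shares its start region with a divergent gene that fell. Each run covers 250 bases before and 50 bases from the RefSeq start (RefSeq, GRCh38 patch 14), on the strand of the gene. EXOSC2 is read from chr9:130693510-130693809 on the plus strand, EXOSC3 from chr9:37785043-37785342 on the minus strand and ZFC3H1 from chr12:71663799-71664098 on the minus strand. Capitals mark every match to 5 strings, searched on both strands, that are core letters of known promoter motifs. The strings are CCGGAA (ETS factors), AAGATGGC (YY1), GCATGCGC (NRF1), CCAAT (NF-Y) and GGGCGG (Sp and KLF factors), none of which contains another.
EXOSC2: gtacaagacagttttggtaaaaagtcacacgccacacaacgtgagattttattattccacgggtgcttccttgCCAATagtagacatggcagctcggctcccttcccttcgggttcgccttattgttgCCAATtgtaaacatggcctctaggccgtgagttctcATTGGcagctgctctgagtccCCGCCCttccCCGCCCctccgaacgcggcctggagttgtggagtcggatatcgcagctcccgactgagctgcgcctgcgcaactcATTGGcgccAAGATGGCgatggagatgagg
EXOSC3: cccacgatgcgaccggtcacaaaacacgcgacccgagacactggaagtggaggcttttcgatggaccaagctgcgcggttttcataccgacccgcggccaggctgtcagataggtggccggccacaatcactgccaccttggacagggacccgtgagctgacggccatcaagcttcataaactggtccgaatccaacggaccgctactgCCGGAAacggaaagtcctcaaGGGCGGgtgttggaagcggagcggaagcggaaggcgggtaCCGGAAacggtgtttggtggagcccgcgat
ZFC3H1: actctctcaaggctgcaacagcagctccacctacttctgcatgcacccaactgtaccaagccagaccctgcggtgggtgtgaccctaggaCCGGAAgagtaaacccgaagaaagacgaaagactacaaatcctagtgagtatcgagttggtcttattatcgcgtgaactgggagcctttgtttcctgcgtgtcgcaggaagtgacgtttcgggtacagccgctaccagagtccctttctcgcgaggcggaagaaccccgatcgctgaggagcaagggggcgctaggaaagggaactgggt
The EXOSC2 region held 4 matches to CCAAT, 2 to GGGCGG and 1 to AAGATGGC, the last beginning 29 bases after the start. The EXOSC3 region held 2 matches to CCGGAA, 41 bases before and 20 bases after the start, and 1 to GGGCGG between them. The 2 genes that fell shared GGGCGG and no other of the 5 strings. ZFC3H1 held 1 match to CCGGAA. Over all 10 genes, GGGCGG was present in 8 regions, CCAAT in 6, CCGGAA in 4, GCATGCGC in 2 and AAGATGGC in 1. Among 35116 RefSeq promoter regions of the same length, 45.0% held GGGCGG, 34.6% CCAAT, 17.2% CCGGAA, 3.05% GCATGCGC and 2.89% AAGATGGC. Among the regions of tested genes, the closer comparison, the shares were 65.0%, 34.6%, 25.4%, 4.36% and 4.48% in the same order. The strings were picked after the sequences had been seen, and a match describes letters only.

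Values are normalised reads, which are read counts divided by a size factor for each library and not corrected for gene length. Libraries held between 53054048 and 70986130 reads on genes. Epithelial keratins were high, with KRT7 at 130310 ± 3989 (SD, n = 3) normalised reads in DMSO, whereas WT1 was at 650 ± 74.8. The 7 epithelial markers summed to 430965 to 441494 without and 548373 to 560933 with THZ531, and most of both sums was KRT7, KRT8 and KRT18. Of the 7, PAX8, a lineage factor of this tumour, fell and none rose past the limit, with KRT8 at a log2 fold change of 0.58. EPCAM, KRT7 and KRT18 were at 0.30, 0.08 and 0.43, and WT1 and MUC16 at -0.17 and -0.46. The summed level of 11 markers of leukocytes, endothelium and fibroblasts was 1772 to 1812.5 normalised reads in the DMSO libraries and 2952 to 3139.6 in the THZ531 libraries. Of these 11, COL1A1 and VWF rose, CD3E was at 0 in all 6 libraries and DCN was at 0 in the 3 THZ531 libraries. The part of such markers in the results that follow was not tested. In bulk RNA, fewer cells of a type and less RNA per cell cannot be told apart. A locus was tested with limma on log2(value + 1) if it reached 10 normalised reads in at least 3 libraries, and 17568 loci did. It was called changed at a fold change of at least 1.5 with an unadjusted p of at most 0.05, and adjusted p-values are Benjamini-Hochberg values over all loci tested. By that rule 39.5% of tested loci changed, 15.7% upward and 23.9% downward.

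EXOSC2 and EXOSC3, 2 of the cap subunits, fell after THZ531, and none of the other 8 genes was called changed. All 10 genes passed the expression minimum. The 2 falls are 20% of the genes, beside 23.9% of all loci, and the absence of any rise stands beside 15.7% of all loci. The median log2 fold change of the 10 genes was 0.10, with a range from -1.31 to 0.39, against -0.01 for all loci tested. All 8 genes without a call had a 95% confidence interval that lay inside the 1.5-fold limits, which are 0.58 either way on the log2 scale.

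**Figure D1:**
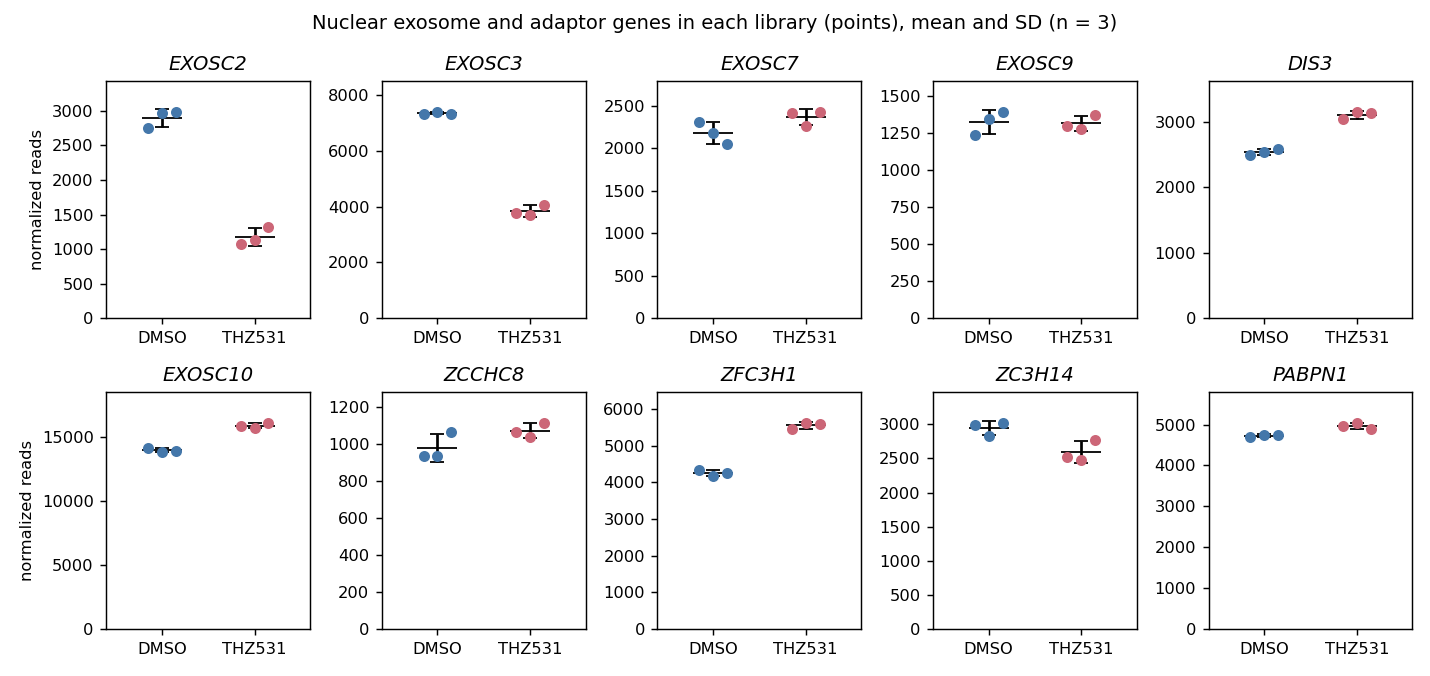
Normalised reads (vertical axis, from 0, a separate scale for each gene) in the 3 DMSO and 3 THZ531 libraries for the 10 genes. Points are libraries, the long bar is the mean and the whiskers are the SD. EXOSC2 and EXOSC3 are lower in every THZ531 library than in any DMSO library by a wide margin, and the points of EXOSC7, EXOSC9 and ZCCHC8 overlap between groups.

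EXOSC2 (chr9:130693760-130704894, plus strand, build hg38) encodes a cap subunit with RNA-binding domains. It was at 2750.1, 2968 and 2983 normalised reads in the DMSO libraries and at 1069, 1137 and 1324 in the THZ531 libraries. Even the highest treated library lay far below the lowest control, so the groups did not overlap. The mean moved from 2901 ± 131 to 1177 ± 132 (SD, n = 3), a 2.47-fold decrease. The log2 fold change was -1.31 with a standard error of 0.07 and a 95% interval from -1.46 to -1.15 (limma, adjusted p = 1.9e-10).

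EXOSC3 (chr9:37766978-37785092, minus strand) encodes the neighbouring cap subunit, and inherited mutations in it can cause pontocerebellar hypoplasia. It was at 7336, 7400.03 and 7321 normalised reads in DMSO and at 3767, 3687 and 4076 after THZ531. The control libraries lay within a few percent of each other, and all treated libraries lay well below them. The mean moved from 7352 ± 41.9 to 3844 ± 205 (SD, n = 3), a 1.91-fold decrease, with a log2 fold change of -0.94 ± 0.04 (SE) and an interval from -1.03 to -0.84 (limma, adjusted p = 3.3e-11). The deposited locus of EXOSC3 is longer than its gene model. It runs 12736 bases past the 3′ end of the MANE transcript, the agreed representative transcript, and overlaps TRMT10B on the opposite strand by 11995 bases.

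TRMT10B, a tRNA methyltransferase gene, was itself low and fell from 239 ± 37.1 to 59.0 ± 26.1 normalised reads (SD, n = 3), which is a log2 fold change of -2.08 (limma, adjusted p = 2.8e-06). Its normalised reads were 222, 213 and 282 in DMSO and 52.9, 36.4 and 87.6 after THZ531. Whether counting used the strand is not given in the sources used here, and without strand the reads of the 2 genes cannot be told apart where they overlap. In DMSO the mean counted for TRMT10B was 239 normalised reads and that for EXOSC3 was 7352. How reads of the overlap were assigned, and their part in either fall, was not tested.

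EXOSC7 and EXOSC9 encode subunits of the ring, the channel through which RNA is threaded. EXOSC7 (chr3:44975258-45012668, plus strand) was at 2316, 2180 and 2056 normalised reads in DMSO and at 2419, 2267 and 2429 after THZ531. The groups overlapped, and the log2 fold change was 0.12 ± 0.06 (SE) with an interval from 0.00 to 0.24 (limma, adjusted p = 0.069). EXOSC9 (chr4:121801318-121817021, plus strand) was at 1235, 1339.9 and 1389.9 in DMSO and at 1296, 1273 and 1369.8 after THZ531. These groups overlapped almost fully. The log2 fold change of EXOSC9 was -0.01 ± 0.06 (SE), with an interval from -0.15 to 0.13 (limma, adjusted p = 0.92).

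DIS3 and EXOSC10, the 2 ribonucleases, were higher after THZ531 in every library but did not reach 1.5-fold. DIS3 (chr13:72749534-72782101, minus strand), which degrades RNA processively and is often mutated in multiple myeloma, was at 2489.7, 2539.7 and 2591 normalised reads in DMSO. After THZ531 it was at 3039, 3149 and 3129, so the groups did not overlap. The log2 fold change was 0.29 ± 0.05 (SE) with an interval from 0.19 to 0.39 (limma, adjusted p = 3.4e-05). EXOSC10 (chr1:11066618-11099887, minus strand), the distributive nuclear and nucleolar nuclease, was at 14169.5, 13885 and 13963 in DMSO and at 15905, 15736.5 and 16155 after THZ531. The groups were again apart. Its log2 fold change was 0.19 ± 0.03 (SE), between 0.12 and 0.26 (limma, adjusted p = 1e-04).

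**Figure D2:**
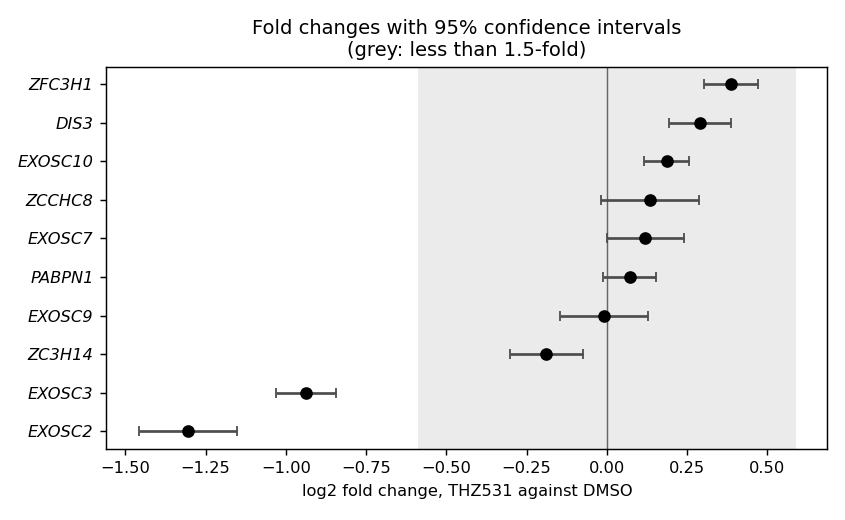
Log2 fold change of THZ531 against DMSO (horizontal axis) for the 10 genes, with 95% confidence intervals from limma as bars and 3 libraries in each group. The grey band marks changes of less than 1.5-fold. The intervals of EXOSC2 (-1.46 to -1.15) and EXOSC3 (-1.03 to -0.84) lie wholly outside the band on the low side, and the other 8 lie wholly inside it.

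Among the adaptors, ZFC3H1 had the largest positive difference of the 10 genes and ZC3H14 a small negative one, with neither called. ZFC3H1 (chr12:71609599-71663858, minus strand), the scaffold of PAXT, was at 4326, 4178 and 4239.99 normalised reads in DMSO and at 5441, 5623 and 5599 after THZ531. Each treated library was above every control. The log2 fold change was 0.39 ± 0.04 (SE) with an interval from 0.30 to 0.47 (limma, adjusted p = 3.2e-07).

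ZC3H14 (chr14:88562970-88627596, plus strand) was at 2992, 2837 and 3025 normalised reads in DMSO and at 2519, 2483 and 2774 after THZ531. Treated libraries were all below the controls, by a margin smaller than the spread among the treated ones. The log2 fold change was -0.19 ± 0.05 (SE), between -0.30 and -0.08 (limma, adjusted p = 0.0052).

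ZCCHC8 (chr12:122471600-122500971, minus strand), the scaffold of NEXT, was at 938, 934 and 1064 normalised reads in DMSO and at 1063, 1039 and 1116 after THZ531. The groups overlapped, with a log2 fold change of 0.13 ± 0.07 (SE) and an interval from -0.02 to 0.29 (limma, adjusted p = 0.11). PABPN1 (chr14:23321457-23326163, plus strand), which coats new poly(A) tails, was at 4703, 4757 and 4736 in DMSO and at 4972, 5048 and 4892 after THZ531. Its treated libraries were above all controls, yet the log2 fold change was only 0.07 ± 0.04 (SE), between -0.01 and 0.15 (limma, adjusted p = 0.12).

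By the adjusted p alone, at any fold, DIS3, EXOSC10 and ZFC3H1 were higher and EXOSC2, EXOSC3 and ZC3H14 were lower. That is 3 of the 10 genes in each direction, beside 34.6% of all loci higher and 34.1% lower by the same rule. The remaining 4, EXOSC7, EXOSC9, ZCCHC8 and PABPN1, passed in neither direction.

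The sign of the small differences rested on how the libraries were put on one scale. With every library set to the same total, the median of all tested loci moved by -0.24 on the log2 scale, and with every library set to the ribosomal protein gene RPL34 it moved by -0.49. Under the same total, 9.38% of loci were called higher and 32% lower. Under RPL34 these shares were 6.14% and 42.8%. EXOSC2 was at -1.55 and -1.80 under the 2 scalings and EXOSC3 at -1.18 and -1.43, so both falls held. Under the same total, EXOSC7, EXOSC10, ZCCHC8 and PABPN1 changed sign, and under RPL34 DIS3 and ZFC3H1 did so too. ZC3H14 was called lower under RPL34, at -0.68.

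**Figure D3:**
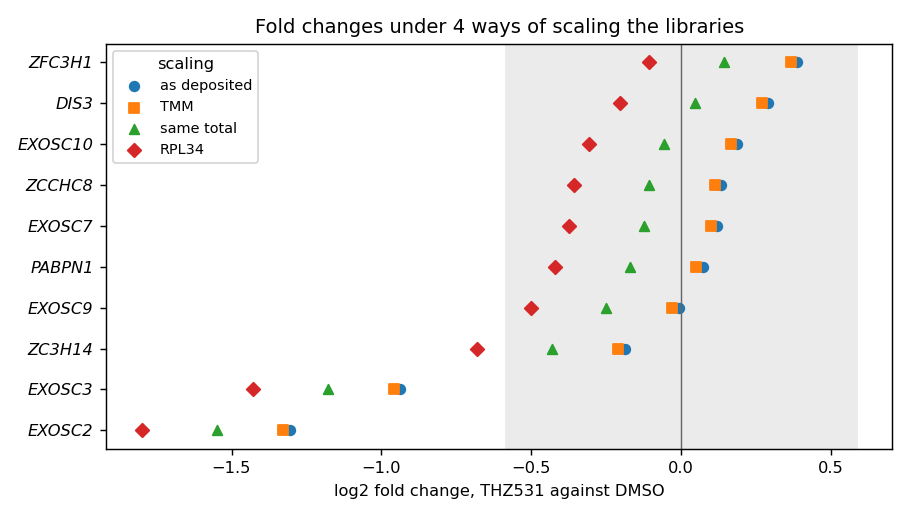
Log2 fold change of the 10 genes (horizontal axis, THZ531 against DMSO) with the libraries scaled as deposited, by TMM factors, to the same total and to RPL34. The grey band marks changes of less than 1.5-fold. Each other scaling moves all 10 genes to the left together, and EXOSC2 and EXOSC3 stay left of the band under all 4.

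Ratios between genes within a library do not depend on the scaling. EXOSC2 relative to EXOSC10 was 0.194, 0.214 and 0.214 in the DMSO libraries and 0.0672, 0.0722 and 0.0820 in the THZ531 libraries. EXOSC3 relative to EXOSC10 was 0.518, 0.533 and 0.524 in DMSO and 0.237, 0.234 and 0.252 after THZ531. EXOSC2 and EXOSC3 were therefore lower against the nuclease EXOSC10 in every treated library. EXOSC7 and EXOSC9 moved less on the same measure. EXOSC7 relative to EXOSC10 went from 0.156 ± 0.00814 to 0.149 ± 0.00425 (SD, n = 3), and EXOSC9 from 0.0944 ± 0.00647 to 0.0824 ± 0.0021. Of the subunits outside the 10 genes, the cap subunit EXOSC1 went from 0.119 ± 0.00912 to 0.0989 ± 0.00193 on this measure and the ring subunit EXOSC4 from 0.0870 ± 0.00492 to 0.0447 ± 0.00203. DIS3 relative to EXOSC10 went from 0.181 ± 0.00509 to 0.195 ± 0.00464. EXOSC2 and EXOSC3 also shifted against each other, with EXOSC2 relative to EXOSC3 at 0.394 ± 0.0173 in DMSO and 0.306 ± 0.0206 after THZ531. ZFC3H1 relative to ZCCHC8, the PAXT scaffold against the NEXT scaffold, was 4.36 ± 0.331 in DMSO and 5.18 ± 0.206 after THZ531.

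Levels of different genes were compared per kilobase of the MANE transcript (GENCODE release 44). In DMSO the order was EXOSC10 at 5009 ± 52.6 normalised reads per kilobase (SD, n = 3), EXOSC3 at 4055 ± 23.1, PABPN1 at 2613 ± 15.1, EXOSC7 at 2096 ± 125 and EXOSC2 at 1442 ± 64.9. Below them stood EXOSC9 at 833 ± 49.99, ZFC3H1 at 604 ± 10.5, DIS3 at 240.3 ± 4.78, ZCCHC8 at 238 ± 18.0 and ZC3H14 at 163 ± 5.54. DIS3 and ZCCHC8 did not differ beyond their spread. After THZ531 EXOSC3 moved from the second to the fourth place, at 2120.0 ± 113, below PABPN1 at 2745 ± 43.1 and within the spread of EXOSC7 at 2276 ± 87.5. EXOSC2 moved from the fifth to the seventh place, at 585 ± 65.7, below EXOSC9 at 827 ± 31.8 and ZFC3H1 at 789 ± 14.1. The ends of the order, EXOSC10 and ZC3H14, were the same in both groups. These per-length levels rest on one transcript model for each gene, and the SDs do not cover that choice. The model of ZC3H14 is 18153 bases long because of its long last exon, and that of DIS3 is 10571 bases long. That of EXOSC3 is 1813 bases long, while its counted locus spans 18115 bases.

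The 2 genes that fell are compact. The MANE transcript of EXOSC2 spans 11113 bases with 8 introns, and that of EXOSC3 spans 5351 bases with 3 introns. Their introns, 9101 bases in EXOSC2 and 3538 in EXOSC3, hold 1 AATAAA each on the gene's strand, the DNA form of the commonest poly(A) signal. Counts of AATAAA here cover the introns of the MANE transcript only and are not corrected for intron length. Among 13243 tested genes with a MANE transcript, the median span was 27626 bases and the median number of intronic AATAAA was 16. EXOSC2 lay at percentile 25.5 of span and EXOSC3 at percentile 12.1. The genes without a call covered both ends. PABPN1, at percentile 10.2, spans 4707 bases and also holds 1 intronic AATAAA. ZFC3H1 and ZC3H14 span 54250 and 64560 bases and hold 46 each. Over all genes, the median span was 28802 bases for the 3033 called lower, 29412 for the 1693 called higher and 26925 for the 8517 not called.

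ZC3H14 contains an unnamed locus that rose. It lies at chr14:88589231-88592405 inside the span of ZC3H14. An exon of an annotated lncRNA (ENSG00000278576, plus strand, the same strand as ZC3H14) begins at the same base and ends at 88592408. Its values were 11.1, 23.2 and 27.1 normalised reads in DMSO and 59.2, 37.5 and 36.4 after THZ531. The groups did not overlap, at a depth of at most 47 reads in any library. The mean moved from 20.5 ± 8.35 to 44.4 ± 12.9 (SD, n = 3), which is a log2 fold change of 1.13 ± 0.40 (SE) with an interval from 0.29 to 1.98 (limma, adjusted p = 0.019). The call was lost without DMSO replicate 1 (0.76) and without THZ531 replicate 1 (0.91). The locus holds 4 AATAAA on this strand. The last of them, in capitals, is shown because it ends 14 bases before the end of the deposited locus (chr14:88592366-88592411, hg38, plus strand).
Intronic locus of ZC3H14: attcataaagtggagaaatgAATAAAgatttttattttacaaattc
Reads of unspliced ZC3H14 and of a separate transcript cannot be told apart there. In all, 10 loci without a symbol lie inside the 10 genes, 6 of them in the EXOSC3 locus, and only 3 reached the minimum for testing. The other 2 tested, in EXOSC3 and EXOSC10, had log2 fold changes of -0.52 and -0.38 (limma, adjusted p = 0.31 and 0.55).

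Genes that start or end within 5000 bases of the 10 genes were looked up after their values had been seen. There are 9, of which 2 fell, TRMT10B beside EXOSC3 and THAP2 beside ZFC3H1, and none rose, so that 22.2% fell beside 23.9% of all loci. THAP2, a gene for a THAP domain protein, is read away from ZFC3H1 on the opposite strand, with 142 bases between the 2 loci, so that the ZFC3H1 sequence printed above covers both starts. It was at 274, 227 and 271 normalised reads in DMSO and at 135, 85.3 and 146 after THZ531, with no overlap. The log2 fold change of THAP2 was -1.11 (limma, adjusted p = 8.7e-05), while that of ZFC3H1 was 0.39. BORA, a mitotic regulator that overlaps the 3′ end of DIS3 on the other strand, was at -0.47 (limma, adjusted p = 2.2e-04) without a call, and was called lower with libraries at the same total (-0.71) or at RPL34 (-0.96). EML5 was also called lower under both scalings, and PIBF1 and EXOSC10-AS1 under RPL34. EML5 held only 6 to 45 reads in a library and EXOSC10-AS1 34 to 78, and as deposited the groups of both overlapped. Under the same total the adjusted p of EML5 was 0.061 (limma). RSRC2 beside ZCCHC8 was at 0.41 (limma, adjusted p = 9.6e-08), also without a call.

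Another 30 genes of RNA decay were read alongside, made up of the rest of the exosome, its nuclear cofactors and adaptors, the cytoplasmic exosome route and other exonucleases. All 30 were tested. Of these, 6 rose and 5 fell, which is 20% and 16.7% beside 15.7% and 23.9% of all loci, and their median log2 fold change was 0.26. By the adjusted p alone, at any fold, 18 of the 30 were higher and 7 lower, beside 34.6% and 34.1% of all loci. TENT4A (0.57), NCBP3 (0.58) and TENT4B (0.53) were higher just under the 1.5-fold limit.

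**Figure D4:**
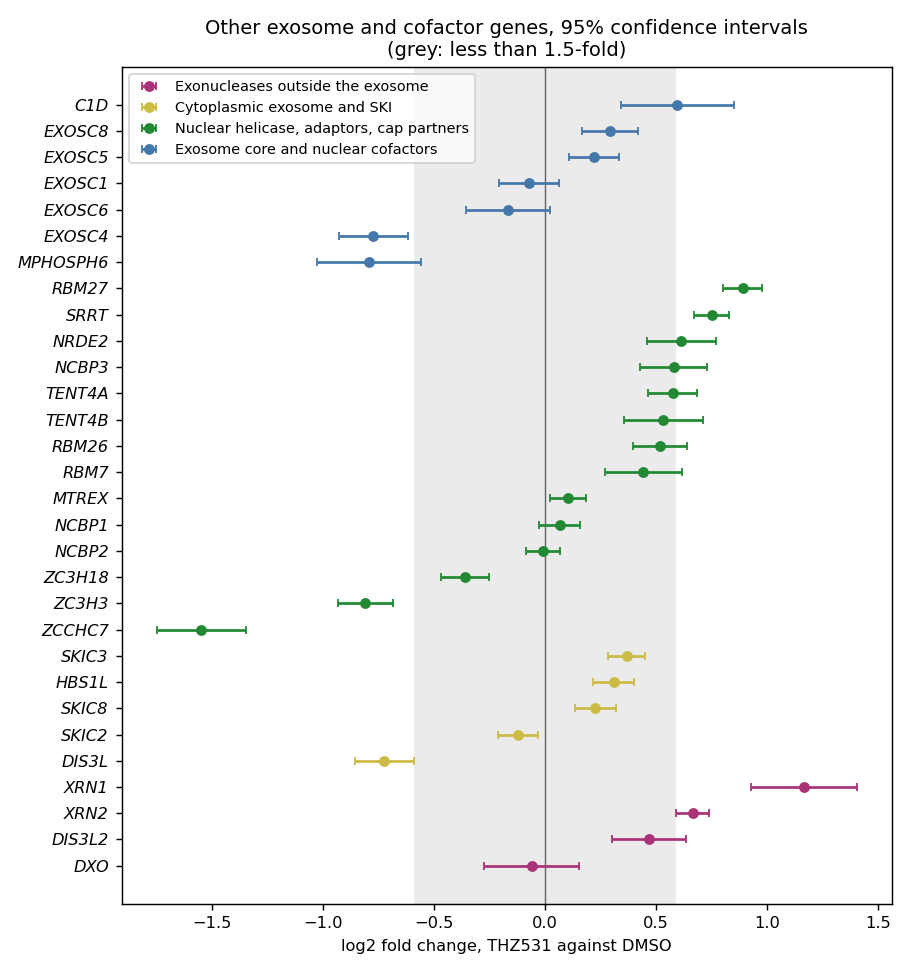
Log2 fold change of THZ531 against DMSO (horizontal axis) for the other 30 genes, with 95% confidence intervals from limma as bars, coloured by the place of the gene in RNA decay. The grey band marks changes of less than 1.5-fold. ZCCHC7 at -1.55 is the farthest to the left and XRN1 at 1.17 the farthest to the right.

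In the exosome core and its nuclear cofactors, 2 of 7 genes fell and 1 rose, or 28.6% and 14.3% beside 23.9% and 15.7% of all loci. EXOSC4, a ring subunit, fell from 1218 ± 66.1 to 712 ± 39.6 normalised reads (SD, n = 3), which is a log2 fold change of -0.77 (limma, adjusted p = 1.1e-07). With EXOSC2 and EXOSC3 this made 3 of the 11 subunits EXOSC1 to EXOSC10 and DIS3 that fell, and none rose, which is 27.3% lower beside 23.9% of all loci and 0 higher beside 15.7%. EXOSC1, the remaining cap subunit, was at 1791, 1678 and 1516 normalised reads in DMSO and at 1608, 1546 and 1575 after THZ531. Its groups overlapped, with a log2 fold change of -0.07 (limma, adjusted p = 0.33). MPHOSPH6, which tethers MTREX to the exosome, fell from 1406 ± 89.0 to 820.3 ± 165, a log2 fold change of -0.80 (limma, adjusted p = 8.2e-06). C1D, a partner of EXOSC10, was at 333, 373 and 401 in DMSO and at 669, 521 and 494 after THZ531. Its log2 fold change of 0.60 (limma, adjusted p = 3.4e-04) was just past the limit. The call was lost without DMSO replicate 1 (0.52) and without THZ531 replicate 1 (0.46), with edgeR (0.58), TMM factors (0.57), the upper quartile (0.57) and a pseudocount of 10 (0.58), as well as with the same total, RPL34 or a 2-fold limit.

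Among the 14 genes of the nuclear helicase, its adaptors and the cap-binding side, 3 rose and 2 fell, or 21.4% and 14.3% beside 15.7% and 23.9% of all loci. MTREX, the helicase that both NEXT and PAXT use, was at 5244, 5242 and 5253 normalised reads in DMSO and at 5658, 5687 and 5539 after THZ531. It was higher in every treated library by a log2 fold change of only 0.10 (limma, adjusted p = 0.027). RBM7, the RNA-binding partner of ZCCHC8 in NEXT, was at 1158, 1467 and 1474.5 in DMSO and at 1855, 1919.9 and 1759.99 after THZ531. The groups were apart, with a log2 fold change of 0.44 (limma, adjusted p = 1.6e-04) and no call.

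ZCCHC7, the zinc-knuckle subunit of the polyadenylating TRAMP complex, had the lowest fold change of these 30 and the 10 genes above. It fell from 1125 ± 83.8 to 385 ± 43.1 normalised reads, a log2 fold change of -1.55 (limma, adjusted p = 6.4e-10). ZC3H3 and RBM27, both linked to PAXT, moved in opposite directions. ZC3H3 fell from 2461 ± 163 to 1401 ± 35.5, a log2 fold change of -0.81 (limma, adjusted p = 4.6e-09). RBM27 rose from 4588 ± 131 to 8502 ± 278, a log2 fold change of 0.89 (limma, adjusted p = 2.8e-11). The ratio of ZC3H3 to RBM27 went from 0.537 ± 0.0508 to 0.165 ± 0.00346 (SD, n = 3). SRRT, also called ARS2, which ties the cap-binding complex to these decay routes, rose from 12870.3 ± 549 to 21640.4 ± 358, a log2 fold change of 0.75 (limma, adjusted p = 6e-11). NRDE2, a binder of MTREX, rose from 729 ± 29.8 to 1117 ± 69.6, a log2 fold change of 0.61 (limma, adjusted p = 1.5e-06), a call lost without DMSO replicate 3 (0.58) or THZ531 replicate 3 (0.56).

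Of the 5 genes of the cytoplasmic exosome and SKI route, 1 fell and none rose, with 20% lower beside 23.9% of all loci. DIS3L, the cytoplasmic counterpart of DIS3, fell from 3061 ± 121 to 1855 ± 168 normalised reads, a log2 fold change of -0.73 (limma, adjusted p = 3.6e-08). Of 4 exonucleases outside the exosome, 2 rose, a share of 50% in a very short list beside 15.7% of all loci. XRN1, which degrades decapped RNA from the 5′ end in the cytoplasm, rose from 534 ± 94.7 to 1191 ± 120.2, a log2 fold change of 1.17 (limma, adjusted p = 1.3e-07). XRN2, its nuclear counterpart that helps to end transcription, rose from 15608 ± 393 to 24736 ± 632, a log2 fold change of 0.66 (limma, adjusted p = 1.1e-10). With every library at the same total, the calls of C1D, SRRT, NRDE2 and XRN2 were lost and those of RBM27 and XRN1 stayed. Under RPL34 XRN1 alone of the 6 stayed called.

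The host transcripts of small nucleolar RNAs, known substrates of nuclear decay, were read as 13 loci, SNHG1, SNHG3, SNHG5, SNHG6, SNHG7, SNHG8, SNHG12, SNHG15, SNHG16, SNHG17, SNHG19, GAS5 and ZFAS1. None of the 13 was called in either direction, beside 15.7% of all loci higher and 23.9% lower. By the adjusted p alone 6 were higher and 3 lower, beside 34.6% and 34.1% of all loci. Their median log2 fold change was 0.03, with a range from -0.39 to 0.57. The ends of the range, chosen after the values were seen, were SNHG3 and SNHG19. SNHG3 is counted as 1 locus with the gene RCC1 and was at 6886 ± 9.13 normalised reads in DMSO and 5239.6 ± 153 after THZ531. SNHG19 was at 938, 695 and 693 in DMSO and at 1151, 1129.9 and 1132 after THZ531, and without DMSO replicate 1 it was called higher (0.71).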

How the data were processed

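Polyadenylated RNA of 6 OVCAR3 cultures, 3 with DMSO and 3 with THZ531, was made into stranded libraries (TruSeq Stranded mRNA) and sequenced as paired ends. Per the study's methods and processing notes the authors aligned reads to hg38 with STAR (2.7.5a in the notes), counted them on FAST DB genes and scaled them with DESeq2. The deposited values are thus a signal, counts divided by a size factor. The strand setting of the counting is not given in the sources used here. All values came back as whole reads (tolerance 0.01) after multiplication by size factors from 0.794 to 1.26, which gave the depths.

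Groups were taken from the sample titles. The series record calls the 3 samples of a group biological repeats without saying how they were separated, so p-values measure only the spread between these samples. Loci were kept at 10 or more in at least 3 libraries. limma 3.58.1 (R 4.3.3), with a trend, was fitted to log2(value + 1) over all 17568 loci kept, without covariates. Fold changes on this scale understate the change of low genes. Calls needed a fold change of 1.5 and p of 0.05 or less, as in the study's methods. Alternatives were the pseudocount, the minimum, 4 scalings, the block, thresholds, limma without a trend, edgeR 4.0.16 and DESeq2 1.42.0 on recovered reads, and each library left out. Leaving each library out while keeping the loci of all 6 was added after seeing the data. The fit was tested on simulated data.

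The 10 genes and the gene lists were chosen with earlier results of these data known. All 10 are named. Of the other exosome and cofactor genes, those past both thresholds with groups that do not overlap were to be named, besides MTREX and RBM7, and of the loci without a symbol those past both thresholds. EXOSC1, the other loci without a symbol, neighbouring genes, the ends of the range of the snoRNA hosts and the promoter strings were chosen after values or sequences were seen. Same-numbered DMSO and THZ531 libraries did not deviate together (r = 0.0017, 0.0186 and -0.0393), so numbers were not used as pairs. Gene structure came from GENCODE release 44 and promoters from RefSeq.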

Additional observations from a re-analysis of the deposited data

How the results depend on the processing

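EXOSC2 and EXOSC3 were called lower under every alternative run except a fold change of 2, where EXOSC3 (-0.94) was lost and 1 gene remained. Leaving out 1 library at a time gave -1.39 to -1.24 for EXOSC2, -0.98 to -0.91 for EXOSC3, always 2 of the 10 genes lower and 0 higher, and a median of 0.07 to 0.11. The median of the 10 genes was -0.15 with libraries set to the same total and -0.40 with RPL34. In that order of scalings EXOSC7 was at -0.12 and -0.37, EXOSC10 at -0.057 and -0.31, ZCCHC8 at -0.11 and -0.36 and PABPN1 at -0.17 and -0.42. With RPL34 alone DIS3 was at -0.20 and ZFC3H1 at -0.11. EXOSC9, at -0.01, had no stable sign and ran from -0.0564 to 0.0291 with 1 library left out (0.0026 and 0.0291 without DMSO replicates 2 and 3, 8e-04 and 0.0136 without THZ531 replicates 1 and 2).

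Of the other 30 genes, 2 were called higher at equal totals, 1 at equal RPL34 and 1 at a fold change of 2, and 5 to 8 with 1 library left out. 8 were called lower with RPL34 and 1 at a fold change of 2, and 5 with any library left out. Of the snoRNA hosts, 2 were called lower when totals were made equal and 5 when RPL34 was, and 0 to 1 higher with 1 library left out (1 without DMSO replicate 1). The unnamed locus inside ZC3H14 was the only such locus called higher. There were 0 with a minimum of 50 (the locus was then not tested) or with RPL34, and 0 to 1 with 1 library left out. The cause of these differences was not tested, except that scaling to another total or gene moves every locus together.

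With the replicate number as a block, 2 of the 10 genes were called lower and 0 higher, and over all loci 2745 were called higher and 4173 lower, so the block changed no call of these lists. Of the loci without a symbol, 7 of 10 were under the minimum for testing, whereas the 10 genes had at least 844 reads in every library.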
